A study of Mus musculus with 10 samples.

Results

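Molecular chaperones of the cytosol and the mitochondrion were followed in diploid mouse embryonic stem (ES) cells and in 4 ES cell lines that carry an extra copy of 1 autosome. The set was a list of 34 genes chosen by name: the heat shock transcription factors Hsf1 and Hsf2, the cytosolic Hsp70 and Hsp110 chaperones, the Hsp40 co-chaperones, the small heat shock protein Hspb1 and the co-chaperone Bag3, Hsp90 with its co-chaperones, subunits of the chaperonin CCT, and the chaperones of the mitochondrial matrix. Of the 34 genes, 33 had probes under their own name and were tested among 28180 genes in all. The exception was Hspa1b, the near-identical neighbour of Hspa1a.

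The control was the male diploid line AB1 (WT), taken at passages 18 and 20. The trisomic lines, labelled as strain 129 S7/SvEvBrd, had 3 copies of chromosome 6 (Ts6, passages 9 and 18), chromosome 8 (Ts8, passages 10 and 13), chromosome 11 (Ts11, passages 8 and 11) or chromosome 15 (Ts15, passages 11 and 14). Each group had 2 biological replicates, 1 array each and 10 arrays in all. Each trisomy was represented by 1 line, so a property of the line and of the extra chromosome cannot be told apart for any single gene. All cells were grown without stress treatment on γ-irradiated SNL76/7 feeder fibroblasts, which were depleted by letting them settle before RNA was extracted. The array had 1 colour and read messenger RNA, not protein.

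Chaperones bind proteins that are not yet folded or have lost their fold, and they return them to the folded state or hold them until they are degraded. Hsp70 proteins cycle on and off short hydrophobic stretches with the help of Hsp40 proteins, which bring the client and trigger ATP hydrolysis, and of nucleotide exchange factors such as Hsp110 and Bag3. Hsp90 acts later, on kinases, hormone receptors and other clients that are nearly folded, while the ring-shaped CCT folds actin and tubulin. In heat shock or other protein damage the factor Hsf1 is released from chaperones, forms trimers and binds heat shock elements in front of its target genes. Among these are Hspa1a, Hspa1b, Hspb1, Dnajb1, Hsph1 and Bag3, taken here as the stress-inducible members of the list. Cells with an extra chromosome make surplus subunits of protein complexes, and for that reason chaperone levels are often measured in them.

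Levels are on a log2 scale on which 0 is the 75th percentile of all signals of the same array, and a difference of 1 is 2-fold. Levels of different genes come from different probes and are not comparable with each other. All 48 member probes, and so all 33 genes, passed the filter on dim signal, and all 33 genes were well above background on all 10 arrays. The share of all spots well above background ran from 71.37% to 80.18% per array and no spot was saturated. Ts15 had slide 2 to itself and the remaining 8 arrays shared slide 1, so Ts15 and slide cannot be told apart. Within slide 1, group and column of the slide cannot be told apart either. All 14 ES cell markers, Pou5f1, Nanog and Sox2 among them, were above background on every array. Of 20 feeder fibroblast markers 19 were measured, and 17 to 19 of them were above background on each array. In mixed RNA of this kind, fewer cells of a type and less RNA per cell cannot be told apart.

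Most differences of chaperone genes from WT were small, though in Ts11 about as large as those of all genes, and 1 gene passed the test against WT. Hspa1a, an inducible cytosolic Hsp70, was higher in Ts15. In Ts6, Ts8 and Ts11 no member was called at a Benjamini-Hochberg adjusted p under 0.05 by limma, a linear model fitted over all genes and arrays, and 3, 5 and 7 of the 33 members had an unadjusted p under 0.05. In Ts15 the count was 1 called and 4 with an unadjusted p under 0.05. Of all genes tested, 9.04% were called (Ts6), 3.44% (Ts8), 8.12% (Ts11) and 7.47% (Ts15), and 24.97%, 24.65%, 25.47% and 24.48% had an unadjusted p under 0.05. For the mean of the 4 lines against WT, limma called 0 members, 4 had an unadjusted p under 0.05, and 3.84% of all genes were called. The 4 comparisons share the WT arrays.

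The differences themselves were small. The median log2 difference of the 33 members from WT was -0.02 (Ts6), -0.03 (Ts8), -0.06 (Ts11) and 0.08 (Ts15), beside -0.01, 0.03, 0.01 and -0.00 for all genes. These medians had no stable sign: the Ts15 value was -0.01 with quantile normalization, the Ts8 and Ts11 values were 0.03 each with the series table, and the Ts6 value was 0.01 with normexp background correction. Regardless of sign, the median size was 0.10, 0.18, 0.22 and 0.09 for members, beside 0.21, 0.22, 0.22 and 0.21 for all genes. The members' median standard error was also lower, 0.12 against 0.16. The lowest and highest member stood at -0.32 and 0.36 in Ts6, -0.42 and 0.34 in Ts8, and -0.42 and 0.40 in Ts11. In Ts15 they stood at -0.12 and 1.05, and Hspa1a was the 1 member in any line that differed from WT by more than log2(3/2), 0.58, the step from 2 to 3 copies. No member lay below the 5th percentile of all genes in any line, and Hspa1a in Ts15 was the 1 member above the 95th percentile.

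**Figure D1:**
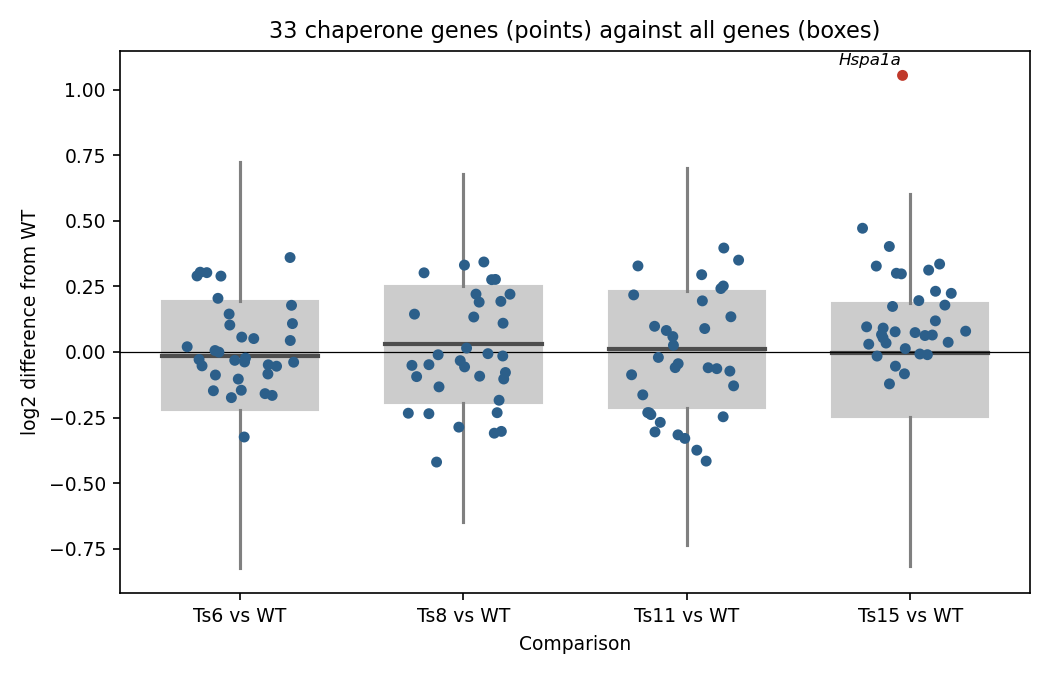
Each point is the log2 difference of 1 of 33 chaperone genes from WT in Ts6, Ts8, Ts11 or Ts15 (2 arrays per group; vertical axis, log2 difference; horizontal scatter within a column has no meaning). The box spans the 25th to 75th percentile of all 28180 genes with the median as a line, the whiskers reach the 5th and 95th percentile, and the gene called by limma is red. In Ts6 26 of 33 points lie within the box, in Ts8 21, in Ts11 17 and in Ts15 22, and Hspa1a in Ts15 is the point at 1.05. In Ts11 the median size of the difference was 0.22 for members and for all genes.

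By sign, 15 of 33 members were above WT (Ts6), 13 (Ts8), 14 (Ts11) and 27 (Ts15), beside 48.0%, 53.6%, 51.3% and 49.4% of all genes. Members with both arrays of the line above both WT arrays numbered 8 (Ts6), 8 (Ts8), 9 (Ts11) and 11 (Ts15), where 27.1%, 30.0%, 27.5% and 27.4% of all genes did so. Members with both arrays below both WT arrays numbered 6, 8, 10 and 0, against 30.6%, 25.1%, 26.5% and 29.8% of all genes. The counts by sign depended on how the arrays were scaled. The 27 members above WT in Ts15 were 28 with normexp background correction but 16 with quantile normalization and 20 with the series table, and they were 19 without Ts15 replicate 1 and 21 without WT replicate 2. With the series table the counts in Ts8 and Ts11 were 21 and 22. No direction of the list as a whole against WT held under all these settings in any line.

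**Figure D2:**
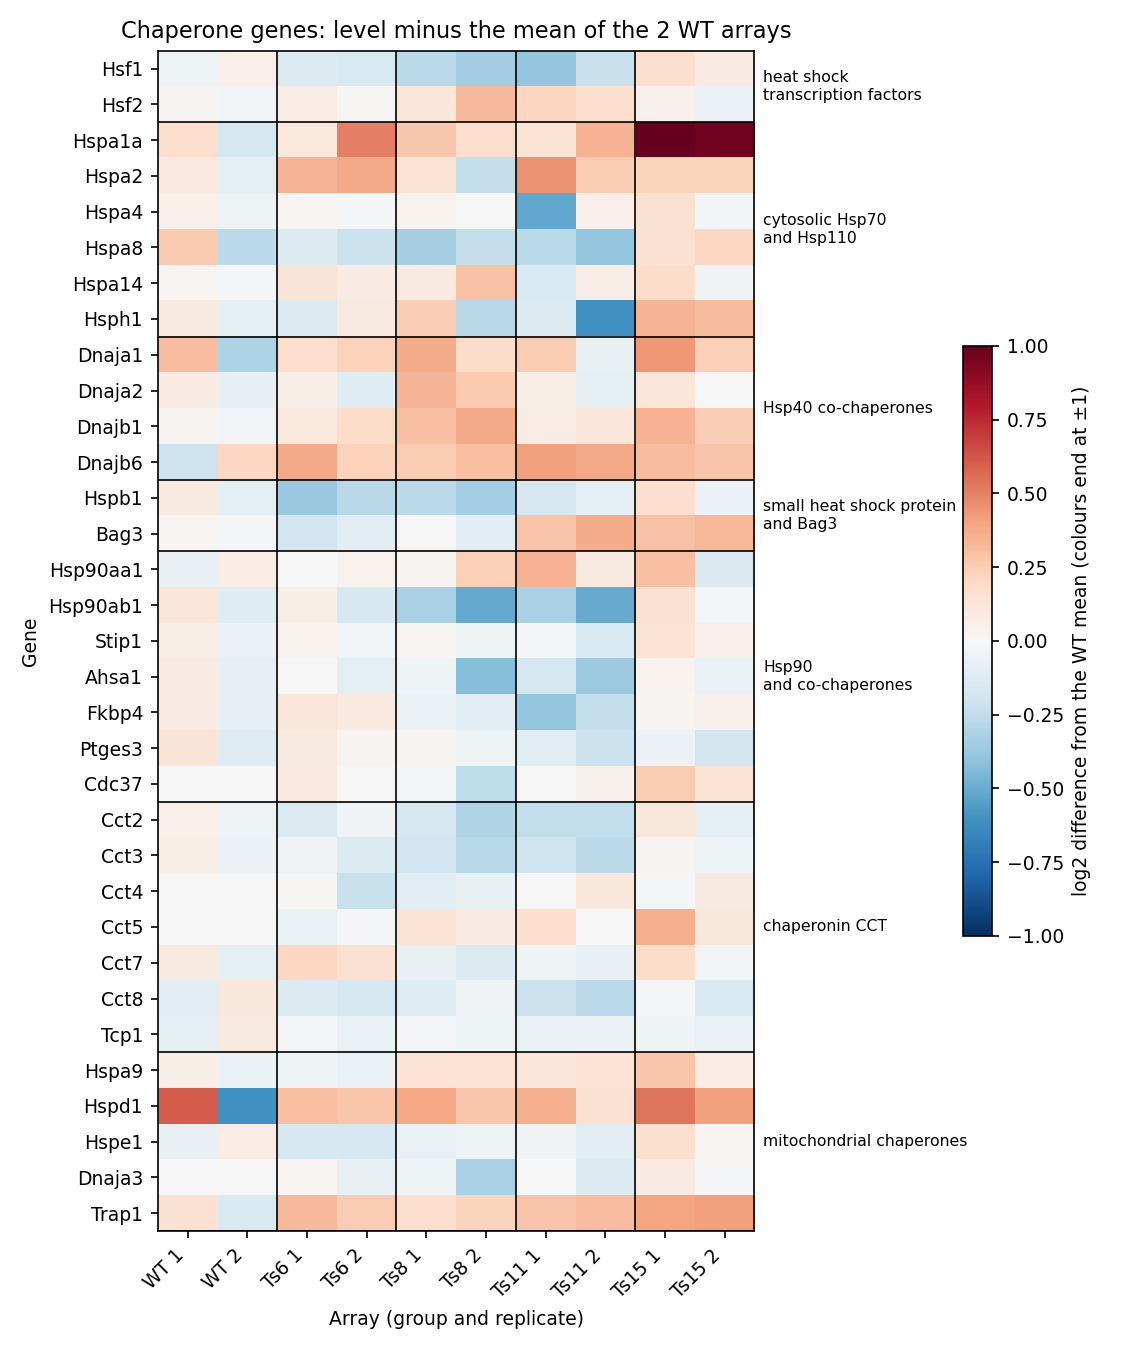
Colours show, for 33 chaperone genes (rows, in 7 functional groups) on 10 arrays (columns, group and replicate), the log2 level minus the mean of the 2 WT arrays; colours end at a difference of 1 either way. The darkest cells are Hspa1a on both Ts15 arrays, most other cells are pale, and Hspd1 shows opposite colours on its WT arrays, which differ by 1.21.

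Hsf1, the master regulator of the heat shock response, lies on chromosome 15, and its probe was at chr15:76331320-76331379 (mm9). It measured 0.61 and 0.71 in WT; Ts6 gave 0.52 and 0.50, Ts8 0.39 and 0.31, Ts11 0.27 and 0.43, and Ts15 0.82 and 0.73. Both Ts15 arrays were thus above the other 8, and all 6 arrays of the other lines were below both WT arrays. Against WT the log2 difference was -0.15 (Ts6), -0.31 (Ts8), -0.30 (Ts11) and 0.12 (Ts15) (limma adjusted p 0.45, 0.13, 0.12 and 0.53), and none passed the test. Between lines, Hsf1 was lower in Ts8 than in Ts15 by a log2 difference of -0.43 (SE 0.10, limma adjusted p 0.032) and lower in Ts11 than in Ts15 by -0.42 (SE 0.10, limma adjusted p 0.035). Without Ts15 replicate 1 these became -0.39 and -0.38, and without replicate 2 -0.47 and -0.46, with limma adjusted p from 0.10 to 0.15, so neither call held. They were also lost without either Ts6 array, at unchanged differences (limma adjusted p 0.058 for Ts8 and 0.063 for Ts11), without either Ts8 array for Ts8 (-0.47 and -0.39) and without either Ts11 array for Ts11 (-0.34 and -0.50). With no filter on dim probes both calls were lost at the same differences (limma adjusted p 0.053 and 0.058), and the Ts11 call was also lost with the series table (-0.35, 0.057) and with passage as a covariate (-0.42, 0.068).

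Hsf2, which acts mainly in development and in germ cells and can form mixed trimers with Hsf1, did not pass the test in any line. It measured 0.44 and 0.39 in WT; Ts6 gave 0.49 and 0.43, Ts8 0.53 and 0.74, Ts11 0.63 and 0.59, and Ts15 0.45 and 0.35. The Ts8 and Ts11 arrays were above both WT arrays, with log2 differences of 0.22 and 0.19 (limma adjusted p 0.25 and 0.31), and Ts6 and Ts15 overlapped WT at 0.04 and -0.01.

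Hspa1a was the member with the largest difference. Its probe, 60 bases at chr17:35107117-35107176 on the minus strand of mm9, is shown because it sets what was measured: the deposited annotation lists 2 RefSeq transcripts for it, 1 of Hspa1a and 1 of Hspa1b, so the RNAs of both genes cannot be told apart.
Hspa1a probe: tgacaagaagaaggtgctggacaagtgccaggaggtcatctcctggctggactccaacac
The levels were -0.93 and -1.28 in WT; Ts6 gave -1.002 and -0.60, Ts8 -0.84 and -0.93, Ts11 -0.97 and -0.76, and Ts15 0.04 and -0.14. Both Ts15 arrays were above all other 8 arrays, which overlapped each other. The difference of Ts15 from WT was 1.05 on the log2 scale (SE 0.18, 95% interval 0.64 to 1.47), or 2.08-fold, with a limma adjusted p of 0.015. In Ts6, Ts8 and Ts11 the differences were 0.30, 0.22 and 0.24 (limma adjusted p 0.34, 0.48 and 0.44).

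Measured against each of the other trisomic lines, Hspa1a was again higher in Ts15. The log2 difference was -0.75 for Ts6 against Ts15, -0.83 for Ts8 against Ts15 and -0.81 for Ts11 against Ts15 (limma adjusted p 0.027, 0.021 and 0.023). Against the mean of the other 4 groups Ts15 was higher by 0.86 (SE 0.14, limma adjusted p 0.0076). Neither Hspa1a nor Hspa1b lies on chromosome 15: both are on chromosome 17. The call against WT was lost without WT replicate 2 (0.88, limma adjusted p 0.078), without Ts15 replicate 1 (0.97, 0.087), without Ts15 replicate 2 (1.14, 0.058), with passage as a covariate (1.21, 0.067) and in a fit of only the WT and Ts15 arrays (1.05, 0.059). The calls between lines were lost without Ts15 replicate 1 (-0.66, -0.75 and -0.72 for Ts6, Ts8 and Ts11) and without Ts15 replicate 2 (-0.84, -0.92 and -0.90). They were also lost without Ts6 replicate 1 for Ts6 (-0.55), without Ts8 replicate 2 for Ts8 (-0.79) and, for Ts11, without either Ts11 array (-0.71 and -0.91) and with passage as a covariate (-0.74, limma adjusted p 0.055). Against the mean of the other 4 groups the call was lost without Ts15 replicate 1 (0.77) or replicate 2 (0.95). The feeder markers moved with this result: their summed signal, in multiples of the 75th percentile of the array, was 90.1 and 94.7 in Ts15, 76.3 and 77.9 in WT, and 62.1 to 80.7 in the other lines, and 1 of 19 rose in Ts15 against WT by limma. Their part in the Hspa1a difference was not tested.

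The stretches before the starts of Hspa1a and Hspa1b are shown, since the 2 genes share a probe and are the inducible genes of the family. They are RefSeq sequences of GRCm38.p6, 250 bases each on the minus strand, at chr17:34972157-34972406 and chr17:34959239-34959488, and capitals mark a pair of inverted GAA units, GAANNTTC, the core of a heat shock element.
Hspa1a: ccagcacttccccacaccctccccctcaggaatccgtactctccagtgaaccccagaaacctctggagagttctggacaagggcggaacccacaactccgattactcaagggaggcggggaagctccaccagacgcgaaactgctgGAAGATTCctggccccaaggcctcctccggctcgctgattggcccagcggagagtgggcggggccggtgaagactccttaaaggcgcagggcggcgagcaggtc
Hspa1b: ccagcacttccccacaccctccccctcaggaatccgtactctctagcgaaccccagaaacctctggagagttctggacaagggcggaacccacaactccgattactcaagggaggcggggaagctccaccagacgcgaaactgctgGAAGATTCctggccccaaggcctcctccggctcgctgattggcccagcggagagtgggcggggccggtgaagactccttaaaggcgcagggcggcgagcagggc
The stretches differ at 3 of 250 bases (98.8% identical), and the marked pair lies 97 to 104 bases before the start in both.

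**Figure D3:**
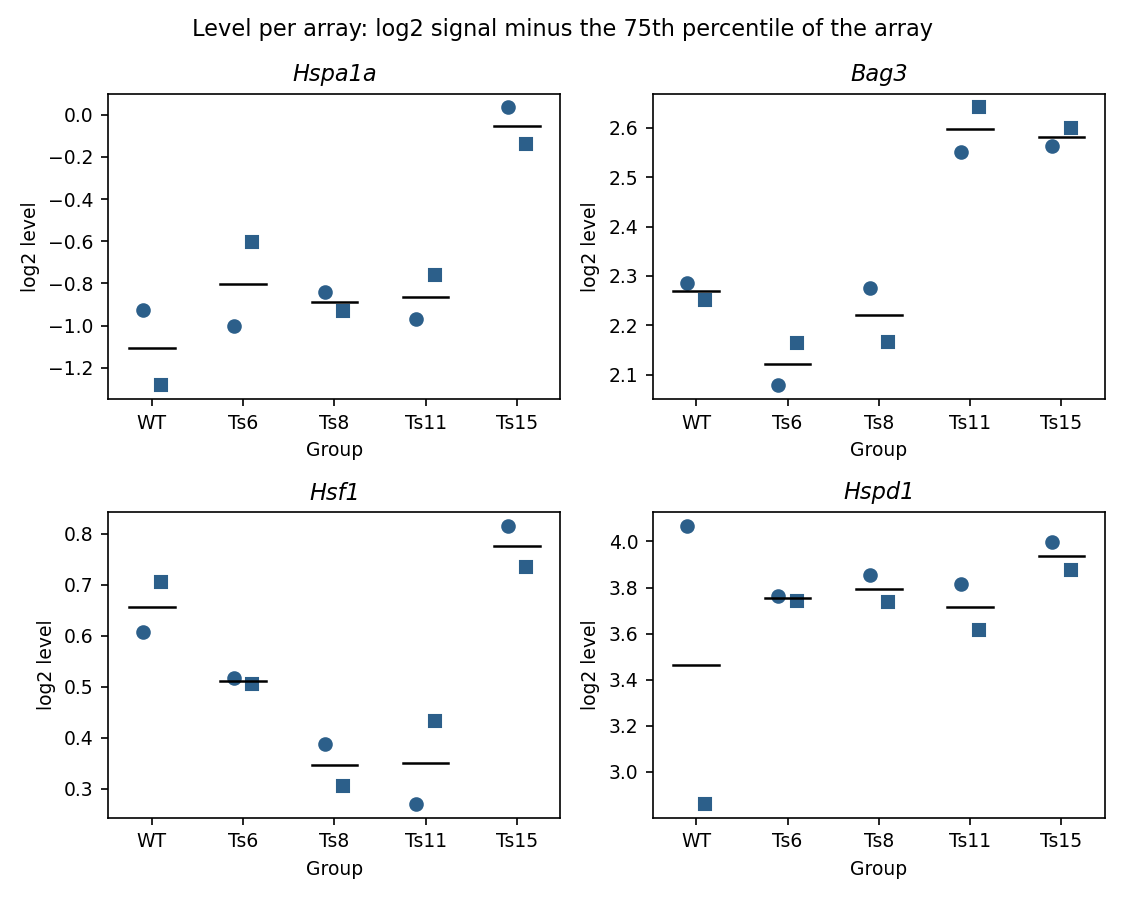
Log2 level (0 is the 75th percentile of the array, vertical axis) of Hspa1a, Bag3, Hsf1 and Hspd1 in the 5 groups; circles are replicate 1, squares replicate 2 and the bar is the mean of the 2 arrays. Each panel has its own vertical range. Hspa1a is highest in Ts15 at 0.04 and -0.14, Bag3 is higher in Ts11 and Ts15 than elsewhere, Hsf1 is highest in Ts15, and the WT arrays of Hspd1 stand at 4.07 and 2.86.

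The other cytosolic Hsp70 and Hsp110 genes did not pass the test in any line. Hsph1, the stress-inducible Hsp110 that exchanges nucleotide on Hsp70, measured 2.07 and 1.90 in WT; Ts6 gave 1.85 and 2.07, Ts8 2.23 and 1.70, Ts11 1.84 and 1.38, and Ts15 2.32 and 2.30. Both Ts15 arrays were above both WT arrays and both Ts11 arrays below them, with log2 differences of 0.33 and -0.37 (limma adjusted p 0.39 and 0.32). The Ts8 arrays, 0.53 apart, spanned the WT values. Hspa8, the constitutive Hsc70, lay at -0.17, -0.29, -0.33 and 0.18 in Ts6, Ts8, Ts11 and Ts15, while its WT arrays read 5.74 and 5.21. The Ts8 and Ts11 differences of Hspa8 were 0.03 each with the series table, so their direction is not settled. A second Hspa8 probe gave 0.13, -0.18, -0.18 and 0.19 in the same order of lines, and a further one -0.20, -0.09, 0.01 and 0.21. The direction in Ts6 is thus not settled either. Hspa2, an Hsp70 known from the testis, lay between -0.05 and 0.36 over the lines, and Hspa14, which works at the ribosome, between -0.04 and 0.19.

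Bag3 links Hsp70 to small heat shock proteins and to autophagy, and it differed between lines more clearly than from WT. It measured 2.29 and 2.25 in WT; Ts6 gave 2.08 and 2.16, Ts8 2.27 and 2.17, Ts11 2.55 and 2.64, and Ts15 2.56 and 2.60 (probe at chr7:135690281-135690340, mm9). All Ts11 and Ts15 arrays were above all WT, Ts6 and Ts8 arrays. Against WT the log2 differences were -0.15 (Ts6), -0.05 (Ts8), 0.33 (Ts11) and 0.31 (Ts15) (limma adjusted p 0.41, 0.79, 0.087 and 0.10), none of them called.

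Between lines Bag3 was lower in Ts6 than in Ts11 by -0.48, lower in Ts6 than in Ts15 by -0.46 and lower in Ts8 than in Ts15 by -0.36 on the log2 scale (SE 0.10, limma adjusted p 0.032, 0.018 and 0.044). Against the mean of the other 4 groups it was lower in Ts6 by -0.30 and higher in Ts15 by 0.28 (SE 0.08, limma adjusted p 0.046 and 0.048). The Ts6 against Ts11 difference lay within slide 1, where group and column of the slide cannot be told apart. It was not called without any 1 array of Ts6, Ts11 or Ts15 (-0.52 to -0.43). The Ts6 against Ts15 difference was not called without any 1 array of those lines (-0.50 to -0.42). The Ts8 against Ts15 call and both calls against the mean of the other 4 groups were lost without any 1 of the 10 arrays, at -0.41 to -0.31, -0.34 to -0.25 and 0.26 to 0.30. The same 3 calls were lost with quantile normalization (-0.29, -0.28 and 0.21), normexp background correction, no filter on dim probes and passage as a covariate. The Ts6 against Ts11 call was lost in the last 2 of these (limma adjusted p 0.056 in each). With the series table the Ts8 against Ts15 call and the Ts15 call against the mean of the other 4 groups were lost as well. The feeder markers moved with Bag3 between Ts6 and Ts15: their summed signal was 62.1 and 70.9 in Ts6 against 90.1 and 94.7 in Ts15, their median log2 difference from WT was -0.41 and 0.13, and 1 of 19 fell in Ts6 by limma. In Ts11, where Bag3 was as high as in Ts15, the sum was 80.7 and 72.9 and the median -0.19. Their part in the Bag3 differences was not tested.

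Hspb1, the small heat shock protein Hsp25, stood below WT in Ts6 and Ts8. It measured 3.92 and 3.73 in WT; Ts6 gave 3.45 and 3.55, Ts8 3.56 and 3.49, Ts11 3.67 and 3.73, and Ts15 3.99 and 3.77. The Ts6 and Ts8 arrays were all below both WT arrays, by log2 differences of -0.32 and -0.30 (limma adjusted p 0.15 and 0.18), while Ts11 and Ts15 differed by -0.13 and 0.05. None of these passed the test.

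Of the stress-inducible members measured (Hspa1a, Hspb1, Dnajb1, Hsph1 and Bag3), Hspa1a alone was called in any line against WT. In Ts15 they stood above WT by 1.05, 0.05, 0.30, 0.33 and 0.31; Hspb1 was below WT there with quantile normalization (-0.07) and with the series table (-0.04). In Ts6, Ts8 and Ts11, 2, 2 and 3 of the 5 stood above WT. Of all genes, 48.0% (Ts6), 53.6% (Ts8), 51.3% (Ts11) and 49.4% (Ts15) did so. Hsp90aa1, inducible as well, was not in this set. It stood at 0.02, 0.13, 0.22 and 0.08 in Ts6, Ts8, Ts11 and Ts15, the last -0.02 with quantile normalization.

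The Hsp40 co-chaperones Dnaja1, Dnaja2, Dnajb1 and Dnajb6 deliver clients to Hsp70. Their median log2 difference from WT was 0.17 (Ts6), 0.29 (Ts8), 0.09 (Ts11) and 0.30 (Ts15), and none was called. With the mean over all probes of a gene the medians were 0.08, 0.29, 0.04 and 0.10. Dnajb1, the inducible Hsp40, measured 3.65 and 3.60 in WT; Ts6 gave 3.73 and 3.81, Ts8 3.93 and 4.01, Ts11 3.70 and 3.75, and Ts15 3.98 and 3.88. All 8 trisomic arrays were above both WT arrays, and the differences were 0.14, 0.34, 0.10 and 0.30 (limma adjusted p 0.41, 0.09, 0.57 and 0.11). Dnajb6, a suppressor of the aggregation of polyglutamine proteins, measured 1.95 and 2.37 in WT and 2.39 to 2.57 on the 8 trisomic arrays, with differences of 0.30, 0.28, 0.40 and 0.30 (limma adjusted p 0.25, 0.28, 0.14 and 0.25).

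Dnajb6 had 4 probes. The one described, which spans an exon junction by its coordinates (chr5:30077544-30078952, mm9), and the next one, at 0.10 to 0.23, lie in the transcript NM_001037941. A further pair, in transcript NM_001037940, gave -0.20 to 0.10, so probes of different transcripts of this gene gave different values. Dnaja1 measured 3.60 and 2.99 in WT and 3.22 to 3.72 in the lines, which overlapped WT. Its second probe gave 0.19, 0.21, -0.17 and -0.16 in Ts6, Ts8, Ts11 and Ts15, where the described probe gave 0.20, 0.28, 0.09 and 0.34.

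Across the list, 3 members had all 8 trisomic arrays above both WT arrays (Dnajb1, Dnajb6 and Trap1), where 4.73% of all genes did, and 0 had all 8 below, where 4.19% did. The line means were above WT in all 4 lines for 7 members (Hspa1a, Hsp90aa1, Hspd1, Dnaja1, Dnajb1, Dnajb6 and Trap1) and below in all 4 for 4 (Cct3, Cct8, Tcp1 and Ahsa1), beside 16.7% and 15.9% of all genes. With other scalings these counts were 6 to 10 above and 3 to 9 below. Hspa1a, Hspd1, Dnaja1, Dnajb1, Dnajb6, Trap1 and Ahsa1 kept their side with each scaling. The second probe of Dnaja1 was nonetheless below WT in Ts11 and Ts15, and further probes of Dnajb6 were below WT in Ts6 (-0.14 and -0.20). Without WT replicate 2, Hspd1 was below WT in each line (-0.31, -0.27, -0.35 and -0.13 in Ts6, Ts8, Ts11 and Ts15). Dnajb6, Trap1, Hsp90ab1 and Hspd1 were singled out after their values were seen. For Dnajb1, Dnajb6 and Trap1 the mean of the 4 lines was above WT by 0.22, 0.32 and 0.29 (limma adjusted p 0.15, 0.16 and 0.12), none of them called.

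Hsp90 and its co-chaperones (Stip1, which bridges Hsp70 and Hsp90; Ahsa1, which activates the Hsp90 ATPase; the immunophilin Fkbp4; the p23 protein Ptges3; and the kinase adaptor Cdc37) had medians of 0.02, -0.09, -0.16 and 0.07 in Ts6, Ts8, Ts11 and Ts15 (the last -0.05 with quantile normalization and -0.02 with the series table), with 0 of 7 called by limma in each line. The constitutive Hsp90ab1 measured 6.01 and 5.77 in WT; Ts6 gave 5.95 and 5.73, Ts8 5.57 and 5.38, Ts11 5.56 and 5.39, and Ts15 6.05 and 5.87. All Ts8 and Ts11 arrays were below all others, at -0.42 from WT in each line (limma adjusted p 0.14 and 0.12), while Ts6 and Ts15 differed from WT by -0.05 and 0.07. The size of this difference rested on the scaling: with quantile normalization Hsp90ab1 was at -0.15 in Ts8 and -0.07 in Ts11, and with the series table at -0.13 and -0.01. The inducible Hsp90aa1 was at 0.02, 0.13, 0.22 and 0.08 (the last -0.02 with quantile normalization), and Ahsa1 was at -0.05, -0.23, -0.27 and -0.02.

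The chaperonin CCT is a double ring of different subunits, of which 7 are members here. Its subunits stayed near their WT level: the medians were -0.08, -0.09, -0.06 and 0.01 (Ts15 -0.07 with quantile normalization, Ts8 and Ts11 0.01 with the series table), the extremes -0.25 (Cct2 in Ts11) and 0.23 (Cct5 in Ts15), and limma called 0 of 7 in each line. Cct2 and Cct3 were at -0.23 and -0.24 in Ts8 and at -0.25 and -0.23 in Ts11, with both arrays below both WT arrays in each case; Cct2 was at -0.08 and -0.03 there with the series table. Tcp1 had the narrowest spread: the 8 trisomic arrays read 3.19 to 3.24, between the WT arrays at 3.17 and 3.34. Subunits whose gene had 3 copies stand at 0.18 (Cct7 in Ts6), 0.06 (Cct4 in Ts11) and 0.23 (Cct5 in Ts15), the highest subunit of their line in Ts6 and Ts15 and the one next to the highest in Ts11.

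In the mitochondrial matrix, mortalin (Hspa9) is the Hsp70, Dnaja3 its Hsp40, Hspd1 and Hspe1 the Hsp60 and Hsp10 of the folding chamber, and Trap1 the Hsp90. The group medians were -0.03 (0.01 with normexp background correction), 0.14, 0.13 and 0.17 in Ts6, Ts8, Ts11 and Ts15, with 0 of 5 called by limma in each line. Trap1 measured 3.06 and 2.76 in WT; Ts6 gave 3.23 and 3.16, Ts8 3.07 and 3.13, Ts11 3.19 and 3.21, and Ts15 3.30 and 3.32. Each trisomic array was above both WT arrays, and the log2 differences were 0.29, 0.19, 0.29 and 0.40 (limma adjusted p 0.18, 0.35, 0.17 and 0.086).

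For Hspd1 the WT arrays decided the outcome. They read 4.07 and 2.86, a gap of 1.21 that was the largest between replicates of any member, and the 8 trisomic arrays lay between, from 3.62 to 3.996. The differences from the WT mean were 0.29, 0.33, 0.25 and 0.47 (SE 0.33, limma adjusted p 0.64, 0.56, 0.67 and 0.42). Without WT replicate 1 they were 0.89, 0.93, 0.85 and 1.07, each called (limma adjusted p 0.021, 0.043, 0.031 and 0.016). Without WT replicate 2 they were -0.31, -0.27, -0.35 and -0.13, none called. Dnaja1 and Hspa8 were also lower on WT replicate 2 than on replicate 1, by the values given above, and the median gap between replicates over the members was 0.16 in WT, against 0.06, 0.08, 0.12 and 0.11 in Ts6, Ts8, Ts11 and Ts15.

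Hspd1 and Hspe1 stand head to head on chromosome 1, with 215 bases between their annotated starts (55087932 and 55088148, GRCm38.p6), and share a promoter. The probe that stood for Hspe1 read 3.94 and 4.09 in WT and 3.85 to 4.18 in the lines. Its differences from WT were -0.17 (Ts6), -0.06 (Ts8), -0.07 (Ts11) and 0.09 (Ts15). The low value of Hspd1 on WT replicate 2 thus had no counterpart at this Hspe1 probe. Another Hspe1 probe gave similar differences, from -0.11 to 0.09. A further one gave larger values at both ends, -0.40 (Ts6), 0.04 (Ts8), -0.11 (Ts11) and 0.42 (Ts15). For these other probes the levels on single arrays are not given, so a counterpart there was not tested. A full heat shock element of 3 alternately inverted units (GAANNTTCNNGAA or TTCNNGAANNTTC, which between them cover both strands) was searched in the 250 bases before each start. It was found in 3 of the 28 members with a promoter sequence, Hspd1, Hspe1 and Dnajb6, and in 139 of 27025 mouse genes with a promoter sequence (0.514%), or 0.466% of 32851 promoters. The stretches with the element are shown for Hspe1 (chr1:55088033-55088102, plus strand, shared with Hspd1) and for Dnajb6 (chr5:29735823-29735892, plus strand), from RefSeq, with the element in capitals.
Hspe1: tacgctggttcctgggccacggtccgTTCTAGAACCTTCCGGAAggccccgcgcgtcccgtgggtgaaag
Dnajb6: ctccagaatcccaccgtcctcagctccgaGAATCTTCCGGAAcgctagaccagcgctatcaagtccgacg
In Hspe1 there are 2 overlapping matches, 72 to 89 bases before the start, and in Dnajb6 there is 1, 34 to 46 bases before it.

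The shorter pair of units (GAANNTTC or TTCNNGAA, contained in the longer element) was searched afterwards and was found in 12 of 28 members (Cct2, Cct5, Cdc37, Dnaja1, Dnajb6, Fkbp4, Hspa1a, Hspa1b, Hspb1, Hspd1, Hspe1 and Hsph1) and in 14.5% of those genes, or 12.8% of promoters. As a description, the 11 measured members with the pair had median log2 differences of 0.05, -0.02, 0.03 and 0.23 in Ts6, Ts8, Ts11 and Ts15. For the 16 without it they were 0.00, -0.02, -0.06 and 0.06. A match of letters is not a bound site. No sequence is given for Hspa9, Hsp90aa1, Hspa8, Hsp90ab1, Hsf1 and Cct4.

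Of the members, 8 lie on a chromosome that is trisomic in 1 of the lines, and each was set against the 4 groups with 2 copies. Here limma called 1 of 8, Hsf1 in Ts15, where 16.4% of all genes were called; for Ts6, Ts8 and Ts11 against the other groups 13.1%, 11.3% and 8.62% were called. Hsf1 was higher in Ts15 by a log2 difference of 0.31 (SE 0.08, limma adjusted p 0.042), beside a median of 0.25 for the 1105 genes of chromosome 15. The call did not hold when any 1 array other than Ts11 replicate 2 was left out (0.27 to 0.35, limma adjusted p 0.051 to 0.24), nor with quantile normalization (0.29), the series table (0.29), no filter on dim probes (0.31) or passage as a covariate (0.31). Cct5, on the same chromosome, measured 4.12 and 4.11 in WT; Ts6 gave 4.05 and 4.11, Ts8 4.25 and 4.20, Ts11 4.28 and 4.11, and Ts15 4.47 and 4.23. Against the mean of the other 4 groups it stood higher in Ts15 by 0.19 (limma adjusted p 0.19), and its lower Ts15 array was within the range of the others.

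On chromosome 8, Dnaja2, a constitutive Hsp40, measured 2.59 and 2.51 in Ts8 and at most 2.37 on the other 8 arrays (WT 2.33 and 2.16, Ts6 2.30 and 2.12, Ts11 2.30 and 2.15, Ts15 2.37 and 2.25). The groups did not overlap, and the difference was 0.30 (SE 0.10, limma adjusted p 0.084); it was called with quantile normalization (0.33, 0.044), the series table (0.33, 0.04), the mean over all probes (0.42, 0.025) and the replicate block (0.30, 0.043). Its second probe was higher in Ts8 than in WT by 0.47. Dnajb1, with its values above, was higher in Ts8 than the mean of the other groups by 0.21 (limma adjusted p 0.12), though 1 of the Ts15 arrays exceeded the lower Ts8 array. The median of the 1498 genes of chromosome 8 was 0.28.

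On chromosome 6, Cct7 measured 5.11 and 5.06 in Ts6; WT gave 5.00 and 4.81, Ts8 4.83 and 4.77, Ts11 4.86 and 4.83, and Ts15 5.09 and 4.88. Fkbp4 measured 3.101 and 3.07 in Ts6; WT gave 3.06 and 2.89, Ts8 2.91 and 2.86, Ts11 2.59 and 2.74, and Ts15 3.00 and 3.02. Each was higher in Ts6 than the other groups by 0.20 (limma adjusted p 0.20 and 0.16), beside a median of 0.18 for the 1456 genes of the chromosome, and Fkbp4 had both Ts6 arrays above all others by a narrow margin.

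On chromosome 11, Cct4 measured 4.06 and 4.17 in Ts11; WT gave 4.06 and 4.05, Ts6 4.07 and 3.84, Ts8 3.94 and 3.98, and Ts15 4.04 and 4.15. The difference of Ts11 from the other 4 groups was 0.10 (limma adjusted p 0.55), and the groups overlapped. Hspa4, an Hsp110 family member, measured 3.60 and 4.17 in Ts11; WT gave 4.17 and 4.06, Ts6 4.13 and 4.09, Ts8 4.15 and 4.11, and Ts15 4.26 and 4.09. It was the 1 trisomic member with a mean below the other groups, at -0.25 (limma adjusted p 0.32), and this rested on Ts11 replicate 1: without it the difference was 0.04. The other probes of Hspa4 were higher in Ts11 than in WT by 0.30 and 0.28 where the described probe gave -0.23. The median of the 1994 genes of chromosome 11 was 0.20.

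**Figure D4:**
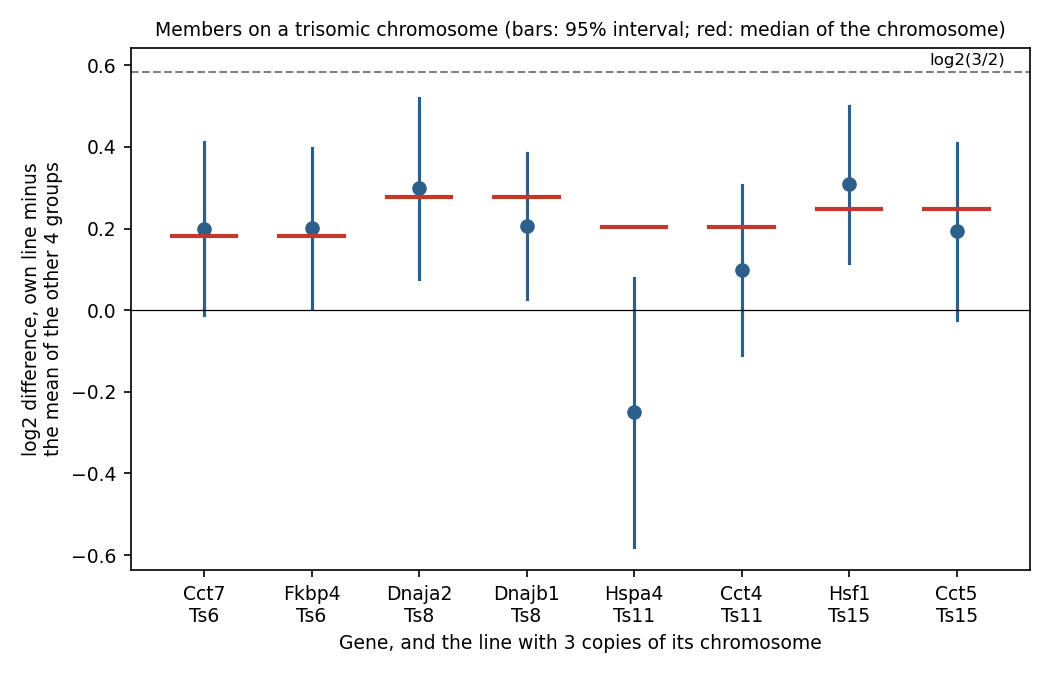
For the 8 chaperone genes on a trisomic chromosome, points give the log2 difference of the line with 3 copies from the mean of the other 4 groups (2 against 8 arrays), bars the 95% interval from limma, red lines the median of all genes of that chromosome and the dashed line log2(3/2). Points of 7 genes lie between 0.10 and 0.31, the red lines at 0.18 to 0.28, and Hspa4 lies at -0.25. Cct7, Fkbp4, Dnaja2 and Hsf1 lie above their red lines. Cct4 (0.10), Dnajb1 (0.21) and Cct5 (0.19) lie below theirs, at 0.20, 0.28 and 0.25.

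The chromosome median lay within the 95% interval of 7 of the 8 members, and the exception was Hspa4, whose interval ran from -0.58 to 0.08. The intervals were wide, so a median inside one does not show that a member followed its chromosome. Those of Cct7 (-0.01 to 0.41), Cct4 (-0.11 to 0.31), Cct5 (-0.02 to 0.41) and Hspa4 also included no difference. The highest upper limit was 0.52 (Dnaja2), below log2(3/2). These intervals are for the probe that stood for each gene. With the mean over all probes Dnaja2 was at 0.42 and Hspa4 at 0.22, where the chromosome 11 median in the main setting was 0.20. No interval is given for the mean over all probes, so whether Hspa4 stays an exception there was not tested.

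The lines were also compared in 6 pairs. Of 33 members limma called 0 between Ts6 and Ts8, where 4 had an unadjusted p under 0.05 and 13.7% of all genes were called. It called 1 between Ts6 and Ts11 (7.32% of all genes) and 0 between Ts8 and Ts11 (4 with an unadjusted p under 0.05, 7.78% of all genes). Against Ts15 it called 2 in Ts6 (18.2%), 3 in Ts8 (17.0%) and 2 in Ts11 (15.2%). All 8 calls were of Hspa1a, Bag3 and Hsf1, with the values given above, and in each the later-named line, Ts11 or Ts15, was higher. In 25, 25 and 27 of 33 members Ts15 stood above Ts6, Ts8 and Ts11, but with quantile normalization in 12, 17 and 22 and with the series table in 19, 16 and 12. Over all members, limma called against the mean of the other 4 groups 1 in Ts6, which fell (Bag3), 0 in Ts8 and in Ts11 (5 with an unadjusted p under 0.05 in each), and 3 in Ts15, which rose (Hsf1, Hspa1a and Bag3).

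A further 71 chaperone and co-chaperone genes outside the list, all of them measured, were counted in the same way. In Ts6 4 rose and 0 fell, among them Cct6b, a testis subunit of CCT (0.95), Hscb, the Hsp40 of mitochondrial iron-sulfur cluster assembly (0.90), and Hspb11 (0.53), with limma adjusted p of 0.015, 0.015 and 0.047. In Ts11 2 rose, Cct6b (1.21, limma adjusted p 0.0085), whose gene is on chromosome 11, and Hscb (0.88, limma adjusted p 0.020). In Ts8 1 rose, Hsf4, a heat shock factor on chromosome 8 (0.96, limma adjusted p 0.032). In Ts15 1 fell, Hspb7 (-0.87, limma adjusted p 0.0078). It was well above background on both WT and both Ts8 arrays, on 1 array each of Ts6 and Ts11, and on neither Ts15 array. Its signal was thus near the background, and the size of the difference is not settled. For the mean of the 4 lines, Hscb alone was called (0.68, limma adjusted p 0.032). The calls among these 71 genes were not tried under the alternative settings used for the members.

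Hscb measured 1.01 and 0.90 in WT; Ts6 gave 2.04 and 1.66, Ts8 1.28 and 1.46, Ts11 1.71 and 1.97, and Ts15 1.56 and 1.43. Every trisomic array was above both WT arrays. The 71 genes had medians of -0.02, 0.02, 0.04 and 0.03 in Ts6, Ts8, Ts11 and Ts15. The shares called, 5.63%, 1.41%, 2.82% and 1.41%, were below those of all genes in each line.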

How the data were processed

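RNA of 10 cultures in 5 groups was read on Agilent 1-colour mouse arrays with probes placed on mm9, per the file headers. The intensity values deposited by the authors are processed signals from Agilent Feature Extraction 10.7.3.1, per the file headers, and no scaling between arrays is recorded. The series table deposited by the authors holds log2 values that correlate with the log2 intensities at 0.9984 to 0.9999 across probes; its centring is unknown, so it served only as an alternative.

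Processed signals were taken to log2 and the 75th percentile of each array was subtracted. From 55681 probes, 176 were removed because some array held no spot of the probe that was free of an outlier mark. In all, 545 probes had a spot marked as an outlier, and the others among them kept the mean of their unmarked spots. A probe was then kept if some group had both of its arrays well above background, which 43043 probes met. Gene names were updated through RefSeq accessions (26762 of 28390 matched). The probe with the highest mean stood for its gene, and 8 members had several probes. Among these, 3, 3, 4 and 5 in Ts6, Ts8, Ts11 and Ts15 had probes of opposite sign.

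The linear model was limma's (version 3.58.1, R 4.3.3), with 10 arrays and a mean for each of 5 groups, 5 residual and 2.655 prior degrees of freedom, two-sided tests, and Benjamini-Hochberg adjustment over all 28180 genes within a comparison; a gene was called at an adjusted p under 0.05. The number of arrays limits the precision. Passage differs between WT and most trisomic cultures.

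The members and lists were chosen with earlier results of these data known. Values on every array are given for members called against WT, on a trisomic chromosome or stress-inducible, and for Hsf1 and Hsf2. For others ranges and counts are given, except Hsp90ab1 and Trap1, singled out after their values were seen. The alternatives were quantile normalization, normexp background correction with an offset of 50, the series table, no filter on dim probes, the mean over all probes of a gene, a fit of only the arrays compared, slide 1 only, passage as a covariate, the replicate number as a block, and leaving out each array in turn. Figures were drawn with Python 3.11.15 and matplotlib 3.10.9. Promoter windows are those of RefSeq on GRCm38.p6. The values of 1 further chaperone gene are not reported here.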

Additional observations from a re-analysis of the deposited data

Results flagged for a closer look

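The tests between lines picked out 3 genes in 4 of the 6 pairs. Hspa1a differed by -0.75 on the log2 scale between Ts6 and Ts15, by -0.83 between Ts8 and Ts15 and by -0.81 between Ts11 and Ts15. Bag3 differed by -0.48 between Ts6 and Ts11, by -0.46 between Ts6 and Ts15 and by -0.36 between Ts8 and Ts15. Hsf1 differed by -0.43 between Ts8 and Ts15 and by -0.42 between Ts11 and Ts15. Each is the direct limma test of the difference between 2 lines, which is also the difference between their changes from WT, and the line named later was higher. The Bag3 difference between Ts6 and Ts11 was measured within slide 1, where group and column of the slide cannot be told apart. For the other 7, Ts15 and slide cannot be told apart.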

How the results depend on the processing

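The 13 called values for single genes kept their sign in the 17 or 18 alternatives that could be run for each, of 19 in all. Of 58 values not called, for the 13 members whose values are given on every array by the naming rule, 21 changed sign in some alternative and 2 gained a call there (Bag3 in Ts11 against WT, Dnaja2 in Ts8 against the other 4 groups). Counts of members called were as follows. In Ts11 against WT, 0 became 1 with the series table (Bag3). In Ts15 against WT, 1 became 0 in a fit of only the arrays compared and with passage as a covariate. Between pairs of lines, 8 became 4 with no filter on dim probes. Over the 7 settings other than leaving out an array, that count ran from 4 to 11. Of members on a trisomic chromosome, 1 became 0 with no filter and with passage, and 2 with the mean over all probes; with quantile normalization and with the series table it stayed 1, but Dnaja2 was called there (0.33 in both) and Hsf1 was not (0.29 in both). Leaving out each array in turn gave 0 to 1 in Ts6, Ts8, Ts11 and the mean of 4 lines, 0 to 2 in Ts15, 0 to 9 between pairs and 0 to 1 for trisomic chromosomes. The causes were not tested.

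With the replicate number as a block, 1 member was called in Ts11 (Hsp90ab1) and 2 on a trisomic chromosome (Dnaja2 and Hsf1). It ended the Bag3 calls of Ts6 (-0.30, adjusted p 0.052) and Ts15 (0.28, 0.053) against the mean of the other 4 groups. Same-numbered arrays also share a row of the slide, so the block stands for both; no label ties them to a shared culture or day, and their deviations correlated at -0.10 to 0.39 between groups. Over all genes, calls against WT ranged from 805 to 2722 in Ts6 (2548 as reported), 1 to 1783 in Ts8 (970), 46 to 2773 in Ts11 (2287), 442 to 2164 in Ts15 (2105) and 2 to 1292 for the mean of 4 lines (1083). With 2 arrays per group the median standard error of a member's difference was 0.12, and the smallest difference between 2 groups that was called was -0.36 (Bag3, Ts8 against Ts15).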
